A study of Macaca mulatta with 18 samples.

Results

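Vastus lateralis, the outer head of the quadriceps, from 6 old male rhesus monkeys was compared with the same muscle from 6 middle-aged males. These are 12 of the 18 animals of the series, and the other 6 were young males. Mean age was 26.83 ± 0.22 years in the old group, 16.48 ± 0.31 in the middle-aged group and 6.00 ± 0.00 in the young group (SEM, n = 6 each). The labels name no treatment and set the 3 groups apart by age alone. The biopsies came from animals of ongoing studies and were flash-frozen, and each animal gave 1 array, a Sentrix Human HT-12 BeadChip. Its probes are designed for human transcripts, so signal falls where the monkey sequence differs from the probe, and levels of different genes are not compared. A detected probe on 6 or more of the 18 arrays was required of a gene, which held for 8589 of the 20046 genes with a named probe. Levels are given on a log2 scale after each array had been set to the same mean and SD (Z scores of log intensity, brought back to log2 units), and differences are old minus middle-aged.

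Skeletal muscle loses mass and force late in life, and the decades from midlife onward cover most of that loss. The tissue balances protein synthesis, which is driven by insulin and mTOR signalling, against removal of proteins by ubiquitin ligases with the proteasome and by autophagy, in which membranes enclose cargo for the lysosome. Chaperones keep contractile and mitochondrial proteins folded, and the fuel used by the fibre shifts between glucose and fatty acids through enzymes such as pyruvate dehydrogenase and its kinases.

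The arrays carried the profile of skeletal muscle at both ages. Of 20 fibre markers 19 were tested, and creatine kinase CKM lay at 14.34 to 15.10 (median 14.47) in middle-aged and 14.07 to 14.72 (median 14.31) in old animals. The arrays themselves differed. The spread of log2 intensities within an array, as an SD, averaged 1.14 at midlife and 1.21 in old age (SD 0.0579 and 0.0391, n = 6 each), a difference of 0.0774 (exact permutation test, two-sided, p = 0.0152), and the brightest probe of every old array (29029 to 38145) exceeded that of every middle-aged array (19899 to 28859). The young arrays were nearer to the old ones, with a mean spread of 1.21 and a brightest probe at 26023 to 37991. The share of probes detected was 26.0 to 28.7% in old and 24.5 to 28.8% in middle-aged animals. Because dividing by the SD and leaving it out give different results for bright genes, directions are given here under 4 scalings: Z scores, quantile normalization, median centring of each array without division by the SD, and neqc, a background correction from detection p-values followed by quantile normalization. The median difference of all tested genes was 0.02 with Z scores, 0.00 with quantile normalization and with neqc, and 0.13 with median centring. List medians under median centring are given after that shift of 0.13 was taken off, while values and counts of single genes keep it. No slide or scan is named in the headers, so a batch could not be examined.

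Between midlife and old age, 20 genes rose and 36 fell (limma, Benjamini-Hochberg adjusted p under 0.05), which is 0.233% and 0.419% of the genes tested. The genes that rose are led by FBXO6 and KLHL21, substrate adaptors of ubiquitin ligases, with TRAPPC12 and TBC1D17 of vesicle traffic and TOLLIP and ATG2A of autophagy among them. Those that fell include the transporter FLVCR2, the lipid hydrolase NCEH1, the antiviral enzyme OAS1, the mRNA export factor THOC2, the clock repressor NR1D1 and the p53 target BBC3. Their changes were moderate, from 0.35 to 0.87 among the risers and from -0.32 to -0.93 among the fallers, against a median standard error of 0.12 over all genes. All 56 kept their direction under the 3 other scalings. In 16 of the 20 genes that rose all old animals lay above all middle-aged animals, and in 34 of the 36 that fell all old animals lay below. Over all genes such groups without overlap occurred in 59 genes with old higher (0.687%) and 91 with old lower (1.06%). With quantile normalization 14 genes rose (0.163%) and 52 fell (0.605%), and 48 of the 56 genes passed under both scalings, 12 that rose and all 36 that fell. With neqc the counts were 14 and 51, and median centring turned the balance to 144 higher and 19 lower, of which 39 were among the 56. Most single calls were close to the threshold: 1 gene, FLVCR2, passed in all 18 fits with 1 animal left out, and 6 passed in at least 14 of them.

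**Figure D1:**
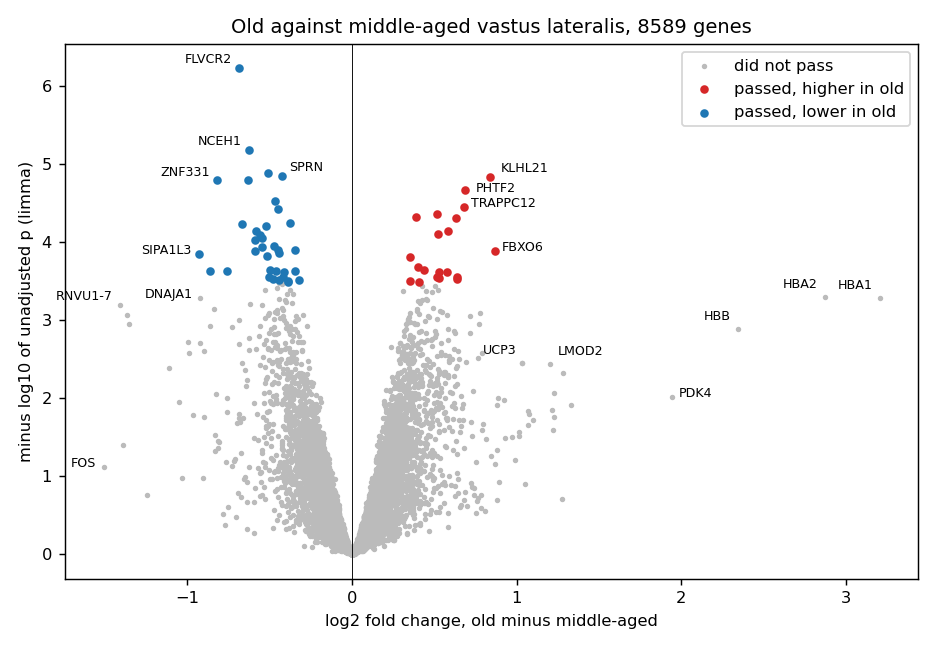
Difference between old and middle-aged vastus lateralis (x axis, log2 fold change) against the strength of the limma test (y axis, minus log10 of the unadjusted p) for 8589 genes, 1 point per gene. The 20 genes that rose and the 36 that fell lie within 1 log2 unit of 0, while the globin genes HBA1, HBA2 and HBB lie farthest to the right and did not pass with Z scores.

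Among the genes that rose, the ubiquitin system was represented by adaptors and a ligase. KLHL21, a kelch protein that brings substrates to cullin 3 ligases, measured 7.52 to 8.00 (median 7.80) in middle-aged and 7.94 to 8.86 (median 8.70) in old animals. Old replicate 1, at 7.94, was the only old animal within the middle-aged range, and the log2 fold change was 0.84 (SE 0.14, adjusted p = 0.0196). FBXO6, an F-box protein that recognises glycosylated proteins for degradation, measured 6.87 to 7.35 (median 7.13) in middle-aged and 7.14 to 8.58 (median 7.99) in old animals. Its lowest old value, 7.14 in replicate 3, lay inside the middle-aged range and the other 5 old values above it (log2 fold change 0.87, SE 0.18, adjusted p = 0.039). TRIM3, a RING-type ligase, rose by 0.39 (adjusted p = 0.0299), from 7.41 to 7.62 (median 7.51) to 7.78 to 8.04 (median 7.90), so that the ages did not overlap. RANBP9, a Ran-binding scaffold found in the CTLH ligase complex, rose by 0.64 (adjusted p = 0.04996) with overlap between the ages. In young animals KLHL21 lay at 7.84 to 8.42 (median 8.10) and FBXO6 at 7.35 to 7.93 (median 7.64), with medians between those of the other ages.

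Membrane traffic and autophagy supplied the next group. TRAPPC12, a subunit of the TRAPP complex that tethers transport vesicles, measured 8.03 to 8.44 (median 8.22) in middle-aged and 8.67 to 9.25 (median 8.84) in old animals (log2 fold change 0.68, SE 0.13, adjusted p = 0.0294). TBC1D17, which switches off Rab GTPases, measured 7.45 to 7.82 (median 7.63) and 7.96 to 8.59 (median 8.27) (log2 fold change 0.63, SE 0.12, adjusted p = 0.0299). Neither gene overlapped between the ages, and the young animals lay at 8.51 to 9.16 (median 8.79) for TRAPPC12 and 7.50 to 8.25 (median 7.85) for TBC1D17. TOLLIP, an adaptor of Toll and interleukin-1 receptors that also binds ubiquitinated cargo in autophagy, rose by 0.52 (adjusted p = 0.0299) and ATG2A, which transfers lipid to the growing autophagosome, by 0.52 (adjusted p = 0.04996). PLEKHB2, a protein of recycling endosomes, rose by 0.53, and GDPD1, a phosphodiesterase of lysophospholipids, by 0.52. A further probe of PLEKHB2 detected on enough arrays gave 0.04, and that of GDPD1 gave 0.11.

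The other genes that rose act mainly in the nucleus or in glycan synthesis. PHTF2, annotated as a putative homeodomain transcription factor, measured 7.08 to 7.85 (median 7.39) in middle-aged and 7.86 to 8.28 (median 8.11) in old animals, without overlap (log2 fold change 0.69, SE 0.12, adjusted p = 0.0231). NUMA1, a scaffold of the nuclear matrix and the mitotic spindle, rose by 0.58 (adjusted p = 0.0329), but its other detected probe gave 0.0092. PHAX, the adaptor that exports small nuclear RNAs, rose by 0.40, the RNA helicase HELZ by 0.44, the mRNA export factor ZC3H3 by 0.35, the chromatin factor GLYR1 by 0.58 and the CDK2-interacting protein CINP by 0.41. FUT6, a fucosyltransferase, rose by 0.64 and GMPPA, a regulator of GDP-mannose synthesis, by 0.36. The rhomboid-family gene RHBDD3 rose by 0.53. CINP was detected on 1 of the 6 middle-aged arrays and on all 6 old arrays, so its middle-aged level is near the background.

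FLVCR2, a membrane transporter linked to haem and choline, fell with the smallest p of all genes. It measured 8.32 to 8.45 (median 8.40) in middle-aged and 7.43 to 7.80 (median 7.75) in old animals, and 7.99 to 8.57 (median 8.20) in young animals. The middle-aged values lay close together, and every old animal lay below every animal of both younger groups. The log2 fold change was -0.69 (SE 0.09, adjusted p = 0.00515), a level 1.61-fold higher at midlife, and it was -0.76 with quantile normalization and -0.56 with median centring. NCEH1, which hydrolyses cholesteryl esters, measured 8.13 to 8.49 (median 8.43) in middle-aged and 7.63 to 7.93 (median 7.75) in old animals (log2 fold change -0.63, SE 0.10, adjusted p = 0.0196) and passed in 15 of the 18 fits with 1 animal left out. Its lowest middle-aged value, 8.13 in replicate 4, still exceeded the highest old value.

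Several genes that fell act in transcription or on RNA. ZNF331, a zinc-finger protein, measured 7.72 to 8.01 (median 7.90) in middle-aged and 6.78 to 7.31 (median 7.13) in old animals (log2 fold change -0.82, SE 0.14, adjusted p = 0.0196), but a further detected probe of this gene moved the other way, by 0.35. THOC2, of the THO complex that couples transcription to mRNA export, measured 7.84 to 8.30 (median 7.98) and 7.17 to 7.64 (median 7.33) (log2 fold change -0.67, SE 0.13, adjusted p = 0.0318). IRX1, a homeobox factor, measured 8.50 to 8.98 (median 8.76) and 8.19 to 8.34 (median 8.26) (log2 fold change -0.51, adjusted p = 0.0196). For all 3 genes the ages did not overlap. SNW1, a splicing and transcription coactivator, fell by 0.52, the zinc-finger gene ZNF473 by 0.55, and SMARCA4, the ATPase of the SWI/SNF chromatin remodeller, by 0.34. EMX2OS, a non-coding RNA antisense to the homeobox gene EMX2, fell by 0.46.

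Single genes of antiviral defence, the clock and cell death also fell. Members above 0 numbered 12 of 17 interferon-induced genes, 12 of 14 clock genes and 12 of 17 CDK inhibitors and p53 targets. The median of all genes was also above 0, at 0.02. At an unadjusted p under 0.05, 2 interferon-induced genes were lower (11.8%) and none higher. Clock genes counted 3 higher (21.4%) and 1 lower (7.14%), and CDK inhibitors and p53 targets 5 (29.4%) and 1 (5.88%). Over all genes 9.24% were higher and 7.22% lower. OAS1, an interferon-induced enzyme that senses double-stranded RNA, measured 7.27 to 7.83 (median 7.34) in middle-aged and 6.62 to 6.99 (median 6.84) in old animals (log2 fold change -0.63, SE 0.11, adjusted p = 0.0196). The 17 tested interferon-induced genes had a median of 0.04 (-0.03 with median centring), and OAS1 was the only member that passed. NR1D1, the clock repressor also called REV-ERB alpha, measured 6.76 to 7.09 (median 6.95) and 6.27 to 6.63 (median 6.46) (log2 fold change -0.45, adjusted p = 0.0294), and its probe was detected on all 6 middle-aged and none of the old arrays, which makes it at least 1.16-fold higher at midlife. In young animals NR1D1 lay at 6.38 to 6.69, near the old range and below every middle-aged animal. The 6 middle-aged detections alone met the detection filter, which favours a fall for such a gene. BBC3, which encodes the pro-apoptotic protein PUMA, fell by 0.44 (adjusted p = 0.0395), from 8.04 to 8.43 (median 8.29) to 7.67 to 7.97 (median 7.82). The probe annotated to FCGR3B, an Fc receptor whose sequence is nearly identical to that of FCGR3A, fell by 0.56. That of FCGR3A had a difference of 0.22 that did not pass (adjusted p = 0.218). Which monkey transcript each probe reads was not tested.

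The remaining falls were spread over signalling, membrane and matrix genes. SIPA1L3, a relative of Rap GTPase activators, had the largest fall, from 7.34 to 8.39 (median 7.80) to 6.71 to 7.03 (median 6.89) (log2 fold change -0.93, SE 0.20, adjusted p = 0.0395), with 3 middle-aged animals at 7.34 to 7.49 and 3 at 8.10 to 8.39. SPRN, a relative of the prion protein, fell by 0.43 (adjusted p = 0.0196) without overlap. The kinase STK26 fell by 0.59, the sodium-coupled sugar transporter SLC5A10 by 0.59, the phosphatase regulator PPP4R1 by 0.55 and the collagen gene COL8A2 by 0.48. The others of the 36 were MUCL3, NSG2, LHFPL6, TEDDM1, SNX22, CALN1, FXYD2, TM2D3, S100PBP, SAMD15, FGL1, S100A13, TAOK2, LRP10, PHYKPL, DPH6 and NKAPD1, with log2 fold changes from -0.86 (MUCL3) to -0.32 (NKAPD1). Besides NR1D1, the probes of PHYKPL, TAOK2, FXYD2, TEDDM1 and NSG2 were detected on no old array, and the level at midlife was at least 1.10-fold (PHYKPL) to 1.46-fold (NSG2) higher. These bounds set the mean of the middle-aged animals against the lowest signal among detected probes of each old array, or the gene's own signal where that was higher. These 6 genes met the detection filter through middle-aged or young arrays only, so the filter itself favoured a fall for them. The filter would favour a rise for genes detected only in old animals, but 0 of the 56 went undetected on all middle-aged arrays. Of the 56 genes, 9 had a further detected probe, and for 4 of these it moved the same way, by 0.11 (GDPD1) at most. For the rest, ZNF331 among them, a further detected probe moved the other way.

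**Figure D2:**
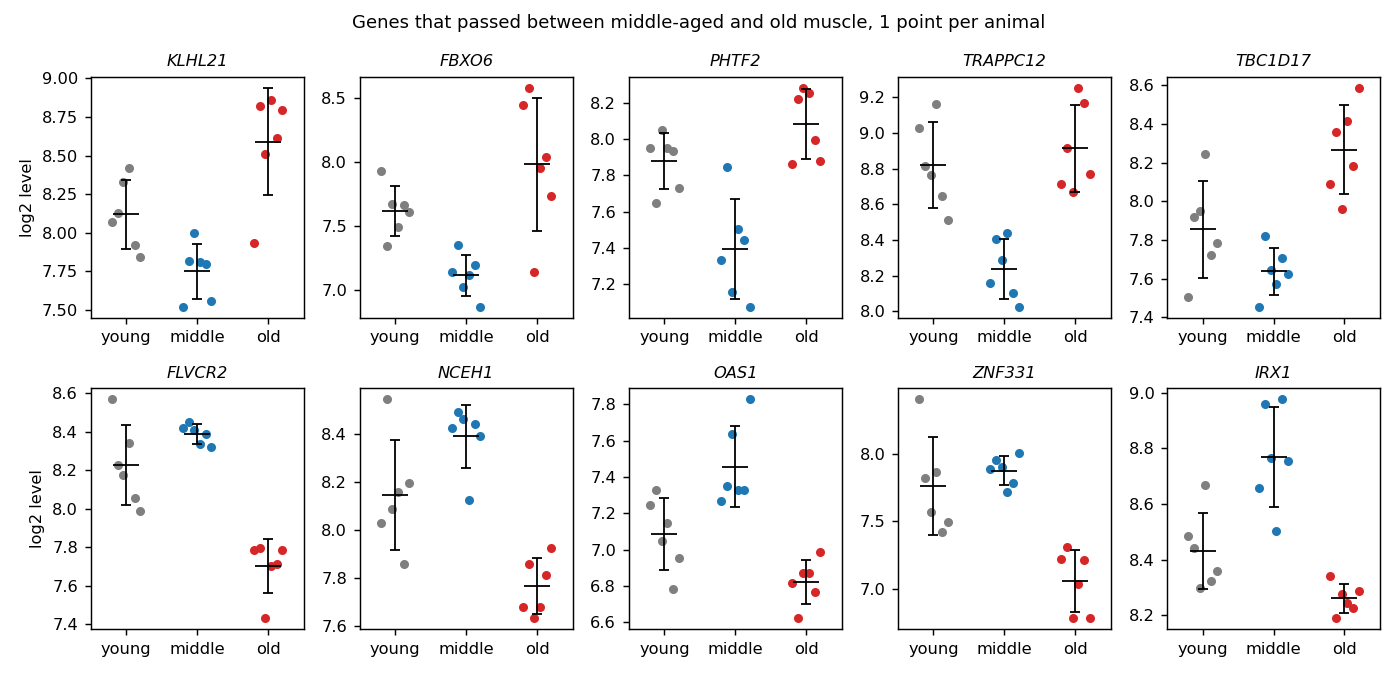
Log2 level (y axis) of 10 genes that passed the test, 1 point per animal for 6 young, 6 middle-aged and 6 old monkeys, with the mean as a dash and the SD as a bar. FLVCR2, NCEH1, OAS1, ZNF331 and IRX1 are lower in all old than in all middle-aged animals, while 1 old animal of KLHL21 and 1 of FBXO6 fall back into the middle-aged range.

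Gene lists for 67 processes and cell types were then described by their counts, since the lists were chosen with earlier results known and were not tested. Over all genes, 794 (9.24%) were higher and 620 (7.22%) lower in old muscle at an unadjusted p under 0.05, and these are the shares to hold the lists against. They do not allow for level. With tested genes ranked by level in 10 bins, bins 5 to 8 had median differences of 0.05 to 0.08 with Z scores. With quantile normalization these were -0.01 to 0.04. List medians with Z scores lay little above that offset for F-box and SOCS-box receptors (0.09), kelch proteins and cullins (0.09) and autophagy (0.11). With quantile normalization these list medians were 0.07, 0.08 and 0.10. A list median is taken over its tested genes. The sign of the median relative to all genes was the same under the 4 scalings for 47 lists and changed for 20.

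RING and HECT ubiquitin ligases of muscle lay mostly higher in old animals, and counts for the other ligase and proteasome lists were nearer to those of all genes. Of 15 tested RING and HECT ligases of muscle, 12 were higher in old animals, 4 of them (26.7%, against 9.24% of all genes) at an unadjusted p under 0.05 and none passing adjustment, with a median of 0.26 (0.19 with quantile normalization). Every old animal had a higher mean level of this list, 0.03 to 0.22 relative to the mean over 18 animals, than any middle-aged animal (-0.22 to -0.04). The largest differences belonged to HECT ligases. WWP1 lay at 7.57 to 8.15 (median 7.95) in middle-aged and 8.00 to 8.98 (median 8.65) in old animals (difference 0.62, adjusted p = 0.0815) and NEDD4 at 8.15 to 8.56 (median 8.42) and 8.54 to 9.27 (median 8.90) (difference 0.51, adjusted p = 0.0821). F-box and SOCS-box receptors counted 5 of 41 higher (12.2%) and none lower at an unadjusted p under 0.05, with FBXO6 the one that passed. Kelch proteins and cullins counted 5 higher (16.1%) and 2 lower (6.45%, against 7.22% of all genes) of 31, with a difference of 0.47 for the scaffold CUL3 (adjusted p = 0.114) and KLHL21 alone passing. Of 31 proteasome subunits 5 were higher (16.1%) and 1 lower (3.23%), the regulatory subunit PSMD11 by 0.30 with no overlap and the assembly factor PSMD5 by -0.36, but neither passed (adjusted p = 0.102 and 0.0582). The list of FOXO factors and atrophy genes had a median of 0.25, with 4 of 18 higher (22.2%) and none passing.

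Vesicle tethers lay higher in old muscle in 21 of 28 genes, but how many passed an unadjusted p under 0.05 depended on the scaling. Of 28 tested genes of TRAPP, exocyst and Golgi tethers, 10 were higher in old muscle at an unadjusted p under 0.05 and 1 lower with Z scores, against 9.24% and 7.22% of all genes, and TRAPPC12 alone passed adjustment. With quantile normalization and with neqc 5 were higher and 1 lower. Their median was 0.18, and 0.12 with quantile normalization. The golgin GCC1 had a difference of 0.34 and GOLGA2 of 0.26 (adjusted p = 0.172 and 0.191), whereas the TRAPP subunit TRAPPC6B went the other way at -0.50 (adjusted p = 0.105). Of 26 autophagy genes 5 were higher (19.2%) and 1 lower (3.85%) at an unadjusted p under 0.05 with Z scores. With quantile normalization and with neqc these counts were 5 and 2. MAP1LC3B, the lipid-anchored marker of autophagosomes, lay at 9.32 to 9.71 (median 9.63) in middle-aged and 9.72 to 10.68 (median 9.95) in old animals without overlap, yet did not pass (difference 0.48, adjusted p = 0.126), and its young level was 9.66 to 10.19 (median 9.99). The mitophagy receptor BNIP3 had a difference of 0.36 and the protease ATG4C of -0.36 (adjusted p = 0.167 and 0.102).

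Chaperones had differences of both signs, the chaperone lists as wholes were mixed and no gene of them passed. Of 8 tested HSP70, HSP90 and HSP110 genes 6 lay below 0, with a median of -0.20. At an unadjusted p under 0.05, 2 were lower (25%, against 7.22% of all genes), and none with median centring. Of 17 DNAJ co-chaperones 8 lay above 0 and 9 below, of 12 mitochondrial and endoplasmic chaperones 6 and 6, of 15 chaperone regulators and CCT subunits 4 and 11, and of 7 small heat shock proteins 5 and 2. DNAJA1, the HSP40 partner of HSP70, measured 10.17 to 11.05 (median 10.52) in middle-aged and 9.05 to 10.40 (median 9.51) in old animals (difference -0.92, SE 0.22, adjusted p = 0.0619). Old replicate 3, at 10.4, was the only old animal within the middle-aged range, and the other 5 lay below it. HSPA8, the constitutive HSP70, measured 12.44 to 13.46 (median 13.19) and 11.73 to 12.93 (median 12.40) (difference -0.67, adjusted p = 0.107), and its other detected probe gave -0.74. The HSP110 gene HSPH1 differed by -0.66, the small heat shock protein HSPB8 by -0.64, the mitochondrial chaperonin HSPD1 by -0.56 and the HSP70-HSP90 adaptor STIP1 by -0.52 (adjusted p = 0.199, 0.132, 0.111 and 0.22). With median centring, before the shift of all genes was taken off, these 6 differences lay between -0.66 (DNAJA1) and -0.22 (HSPD1). In the mean level of the HSP70, HSP90 and HSP110 list old replicate 3 stood at 0.33 and the other 5 old animals at -0.12 or lower.

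**Figure D3:**
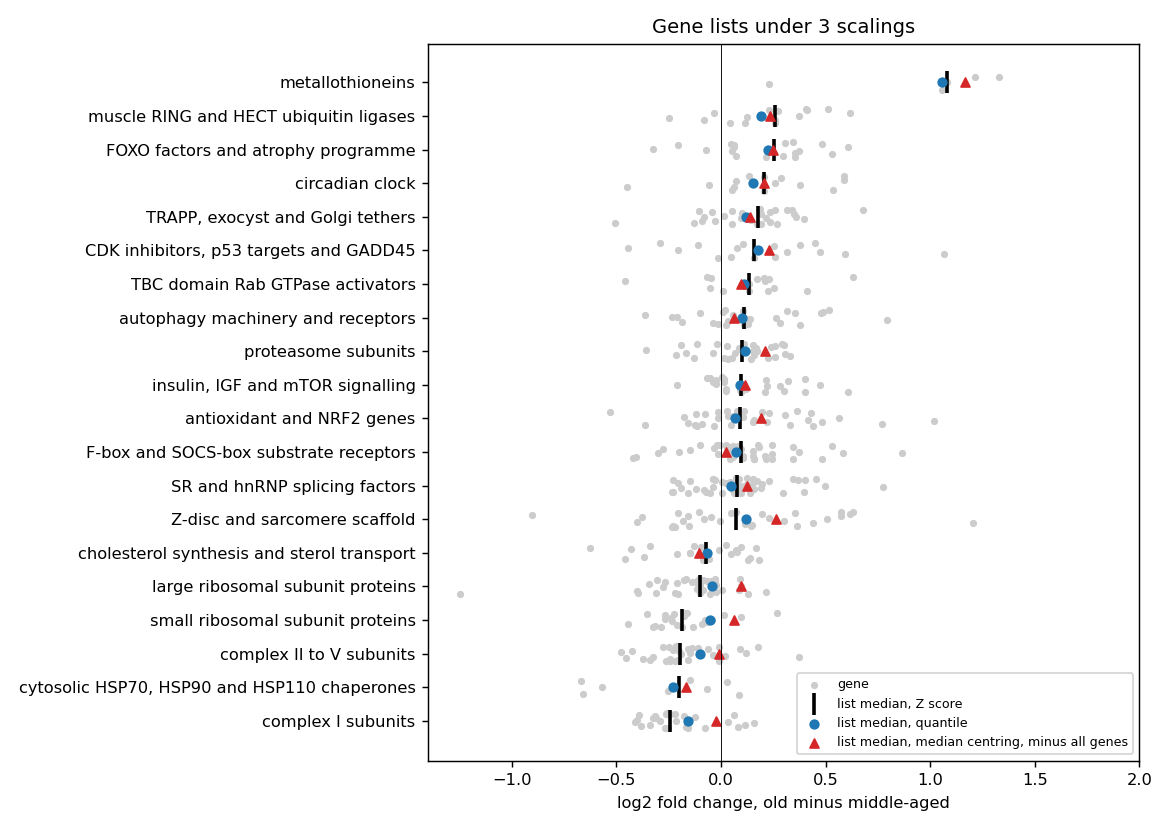
Log2 fold change between old and middle-aged muscle (x axis) for the tested genes of 20 lists (grey points), with the list median under Z scores (bar), quantile normalization (circle) and median centring after removal of the shift of all genes (triangle). Ligase, tether and clock lists lie right of 0 under all 3, whereas the medians of both ribosomal lists lie left of 0 under 2 scalings and right of 0 under median centring.

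Among genes of fuel use, PDK4 had the largest difference, and no gene of this group passed. PDK4, the kinase that switches off pyruvate dehydrogenase in fasted or fat-burning muscle, measured 6.89 to 9.90 (median 7.51) in middle-aged and 7.92 to 11.19 (median 10.06) in old animals. Middle-aged replicate 4, at 9.90, was the only middle-aged animal above 8.1, and 1 young animal reached 10.39. The difference of 1.94 (SE 0.67) did not pass (adjusted p = 0.157). UCP3, the uncoupling protein of muscle mitochondria, which follows fatty acid supply, measured 10.84 to 11.67 (median 11.35) and 11.65 to 13.47 (median 12.25) (difference 1.03, adjusted p = 0.107), and 5 of the 6 old animals exceeded all middle-aged animals. Its other detected probes gave 0.76 and 1.34. PDHB, a subunit of pyruvate dehydrogenase itself, lay lower in every old animal, 11.17 to 11.79 (median 11.31) against 10.66 to 11.08 (median 10.76) (difference -0.57, adjusted p = 0.085). Of 21 genes of glucose uptake and glycogen 6 were higher (28.6%) and 3 lower (14.3%) at an unadjusted p under 0.05. Among them the phosphorylase kinase subunit PHKG1 differed by 0.47 and the phosphatase targeting subunit PPP1R3A by 0.65, while PPP1R3B differed by -0.51 (adjusted p = 0.125, 0.105 and 0.15). In insulin and mTOR signalling 5 of 24 were higher (20.8%) and none lower, against 9.24% and 7.22% of all genes. With quantile normalization and with neqc 3 were higher and none lower. The kinase MTOR differed by 0.61 and its substrate RPS6KB1 by 0.40 (adjusted p = 0.174 and 0.137), and again none passed.

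Genes for the respiratory chain and the ribosome have bright probes, and the size of their differences depended on the scaling. With the shift of all genes taken off under median centring, the respiratory chain medians stayed below 0 but came close to it. Those of the ribosomal lists changed sign. Before the shift was taken off, the medians with median centring were 0.11 for complex I and 0.12 for complexes II to V. Complex I subunits had a median of -0.24 with Z scores and -0.16 with quantile normalization, and -0.02 with median centring. For complexes II to V the medians were -0.20, -0.10 and -0.01. With Z scores 4 genes in each of these lists were lower at an unadjusted p under 0.05, and none higher. These are 14.8% of 27 and 12.5% of 32, against 7.22% of all genes. With quantile normalization 4 and 1 were lower, and with neqc 3 and 0. With median centring, counted before the shift was taken off, none was lower and 2 and 1 were higher. The small ribosomal subunit had a median of -0.19 with Z scores, -0.05 with quantile normalization and 0.06 with median centring, so its direction flipped, and so did that of the large subunit (-0.10, -0.04 and 0.09). Among the 10% of tested genes with the brightest probes the median difference was -0.07 with Z scores and -0.02 with quantile normalization. With median centring it was 0.28 before the shift of all genes was taken off. No gene of the brightest 20% passed with Z scores.

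Contractile genes were marked by differences between animals of one age. MYH7, the slow myosin heavy chain, chosen here after its values were seen, measured 9.47 and 9.48 in middle-aged replicates 1 and 4 and 13.1 to 14.7 in the other 4, and 10.17 to 13.37 (median 12.68) in old animals. The mean level of the 11 slow fibre genes spanned -1.71 to 1.60 at midlife and -1.41 to 0.67 in old age, so the old range lay within the middle-aged range. A smaller number of slow fibres and less slow fibre RNA per fibre cannot be told apart in whole muscle, and the same holds for every cell type. CASQ2, the calsequestrin of slow and cardiac muscle, differed by -0.97 (adjusted p = 0.191). Of 31 Z-disc and sarcomere scaffold genes 7 were higher (22.6%, against 9.24% of all genes) and none lower at an unadjusted p under 0.05. LDB3, the Z-disc protein also called ZASP, lay at 7.33 to 7.98 (median 7.76) in middle-aged and 7.78 to 8.50 (median 8.35) in old animals (difference 0.57, adjusted p = 0.072), and LMOD2, a leiomodin that sets thin filament length, at 7.76 to 9.26 (median 8.43) and 8.32 to 10.39 (median 9.72) (difference 1.20, adjusted p = 0.109). LMOD2 passed in 1 of 18 fits with 1 animal left out, that without old replicate 3 (limma adjusted p = 0.0449, highest of the 18 fits 0.213). At the neuromuscular junction AGRN, which encodes agrin and clusters acetylcholine receptors, differed by -0.46 and the axonal neurofilament NEFL by -0.31 with all old animals lower, but neither passed (adjusted p = 0.0714 and 0.133).

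Of stress, clock and cell cycle genes, MT2A and FOS had large differences that not all animals shared, and the clock genes had smaller ones. MT2A, a metal-binding metallothionein, measured 7.74 to 8.46 (median 8.19) in middle-aged and 8.27 to 11.81 (median 8.89) in old animals, where replicates 4 and 5 reached 10.9 and 11.8 and 3 others stayed at or below 8.45 (difference 1.33, adjusted p = 0.173). All 5 tested genes of the metallothionein list had positive differences, with a median of 1.08. The immediate early gene FOS, at 8.18 to 12.50 (median 9.52) and 7.07 to 12.43 (median 7.82), was as high in old replicate 1 (12.4) as in middle-aged replicate 1 (12.5), and its difference of -1.51 did not pass (adjusted p = 0.36). The clock genes TEF and CIART were higher in old muscle by 0.54 and 0.59, while NR1D1, which was lower, was the one clock gene that passed. TEF did not overlap between the ages (7.15 to 7.88 (median 7.78) and 8.00 to 8.38 (median 8.16)), but it did not pass (adjusted p = 0.0717), nor did CIART (0.105). The circadian list as a whole held 12 of 14 genes above 0, with a mean level of -0.12 to -0.08 at midlife and -0.04 to 0.26 in old age, without overlap. The hour of biopsy is not given in the sources used here. GADD45G, a growth arrest gene, differed by 1.07 and TP53INP1, a p53 target, by 0.59 (adjusted p = 0.218 and 0.107). The glutathione enzyme GCLM differed by 0.57 and catalase CAT by 0.44 (adjusted p = 0.101 and 0.122). Of 34 antioxidant genes 6 were higher (17.6%, against 9.24% of all genes) and none lower at an unadjusted p under 0.05. With quantile normalization and with neqc 5 were higher and 1 lower.

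Globin transcripts had the largest differences of all genes, and whether they passed depended on the scaling and on 1 animal. HBA1, an alpha globin, measured 7.73 to 10.29 (median 8.33) in middle-aged and 8.21 to 14.54 (median 12.03) in old animals (difference 3.21, SE 0.77, adjusted p = 0.0619). Old replicates 1 to 3 lay above 13.0, old replicate 5 at 8.21 within the middle-aged range, and middle-aged replicate 6 at 10.3 above the other 5 middle-aged animals. HBA2 and the beta globin HBB differed by 2.87 and 2.35 (adjusted p = 0.0619 and 0.0795). With median centring all 3 globin genes passed (adjusted p = 0.0400 for HBA1, 0.0369 for HBA2 and 0.0373 for HBB), with neqc HBA2 alone did (0.0488), and with quantile normalization none did. With Z scores all 3 passed without old replicate 5 (0.0121 for HBA1, 0.0111 for HBA2 and for HBB) and in no other fit with 1 animal left out. ALAS2, the haem synthesis enzyme of red cell precursors, was highest in old replicate 3 (10.2), followed by replicates 2 and 1 (8.38 and 7.57), and 4 of the 6 old animals exceeded every middle-aged animal, whose highest level was 6.90. AHSP, the alpha globin chaperone, differed by -0.13. Of the 14 erythrocyte markers 6 were tested, and their mean level was -0.75 to 0.53 at midlife and -0.54 to 2.70 in old age. The haem oxygenase HMOX1 differed by 1.02 and the transferrin receptor TFRC by -0.82, neither passing (adjusted p = 0.254 and 0.27). The part of blood in the other results was not tested.

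The mean levels of all marker lists of other cell types overlapped between the ages. The mean level of 20 fibroblast and matrix genes was -0.74 to 0.23 at midlife and -0.45 to 0.46 in old age, that of 11 adipocyte genes -0.56 to 0.65 and -0.38 to 0.40, and that of 13 macrophage genes -0.65 to 0.53 and -0.25 to 0.69. Endothelial genes had a median of -0.22, with 1 of 11, ESAM, lower at an unadjusted p under 0.05 and none passing. Nerve and Schwann cell genes had a median of -0.27 over 4 tested genes. No gene of these lists passed.

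**Figure D4:**
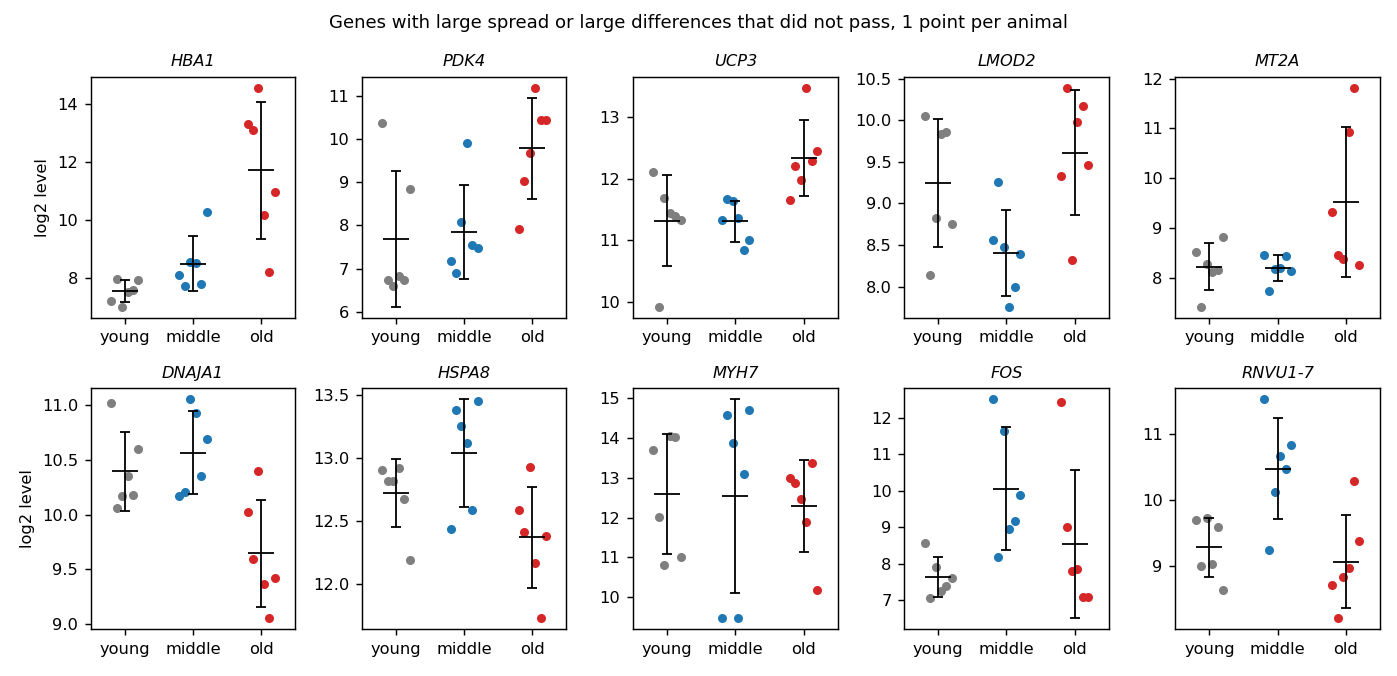
Log2 level (y axis) of 10 genes that did not pass with Z scores, 1 point per animal for 6 young, 6 middle-aged and 6 old monkeys, with the mean as a dash and the SD as a bar. HBA1 spreads over more than 6 log2 units among old animals, MT2A is high in 2 of them, and MYH7 separates 2 middle-aged animals near 9.5 from the other 4.

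Of 30 genes with a difference beyond 1 log2 unit with Z scores, 21 higher and 9 lower in old muscle, none passed under that scaling, whereas HBA1, HBA2 and HBB passed with median centring and HBA2 with neqc. The 3 probes annotated to U1 small nuclear RNA genes, RNVU1-7, RNVU1-18 and RNU1-3, chosen after their values were seen, were lower by 1.41, 1.36 and 1.35 (adjusted p = 0.0663, 0.072 and 0.0758). They passed in 2 of 18 fits with 1 animal left out, those without middle-aged replicate 2 or old replicate 5. Over these fits the limma adjusted p was lowest at 0.0257, 0.0257 and 0.0298 and highest at 0.137, 0.146 and 0.153. These genes have nearly identical copies, so the probes may read the same transcripts. RNVU1-7 lay at 9.24 to 11.53 (median 10.57) in middle-aged, 8.21 to 10.30 (median 8.90) in old and 8.63 to 9.74 (median 9.31) in young animals. CMYA5, a large muscle protein of the costamere, and CA3, the carbonic anhydrase of slow fibres, were likewise chosen for their size, with differences of 1.28 and 1.03 (adjusted p = 0.125 and 0.107). The CA3 probe was detected on 3 middle-aged, 5 old and 3 young arrays, so its middle-aged level is near the background. The median SD between animals of one age over all genes was 0.20 in middle-aged and 0.21 in old animals.

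The number of genes that passed depended on single animals. Without middle-aged replicate 6, the array with the smallest spread, 1 gene passed, and without old replicate 4 likewise 1, FLVCR2 in both fits. Without middle-aged replicates 3, 4 or 5 in turn, 3, 8 and 13 genes passed, and without old replicates 1, 2 or 6, 17, 3 and 4. Without old replicate 3 the count went up to 89 (47 higher, 42 lower), of which 47 were among the 56. Without young replicates 2, 3 or 6, which enter the fit through the shared spread, 33, 28 and 37 genes passed. Leaving out an animal did not turn the direction of any of the 56 genes. These were chosen for a difference in the same animals, and for the 16 risers and 34 fallers without overlap no reversal was possible.

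**Figure D5:**
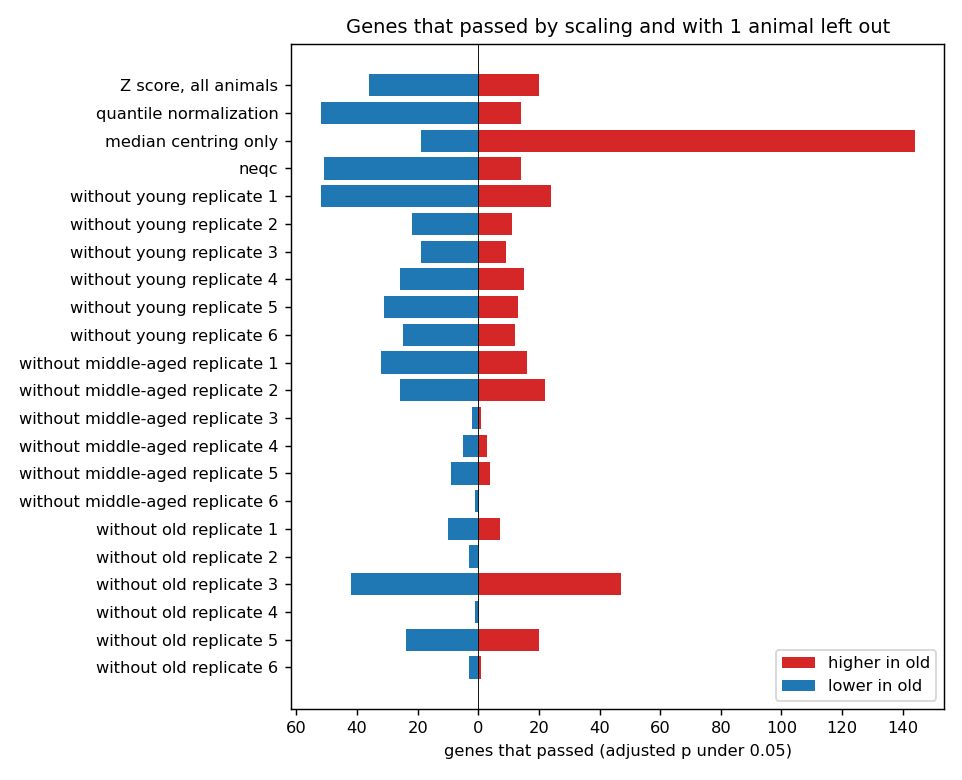
Number of genes that passed (x axis, adjusted p under 0.05) with higher levels in old muscle to the right and lower levels to the left, for the 4 scalings and for Z scores with each of the 18 animals left out. The count falls from 56 to 1 without middle-aged replicate 6 or old replicate 4, and median centring turns the balance to 144 higher and 19 lower.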

How the data were processed

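The authors deposited the probe intensities read out with GenomeStudio 2011.1, a detection p-value per probe and Z scores of the natural log intensities within each array. Whether a background was subtracted is not stated, and no intensity was at or below 0. The deposited Z scores, listed as scores, differed from recomputed ones by at most 0.0184. For 47323 probes, 30113 carry 1 gene symbol, 8 several and 17202 none. Recomputed Z scores were brought back to log2 units through the average array SD (1.19) and centre (6.72). Of the probes detected (p under 0.05) on 6 or more arrays, the brightest represented its gene. The 3 ages entered 1 limma fit (limma 3.58.1, R 4.3.3), with the contrast of old against middle-aged and Benjamini-Hochberg adjustment over 8589 genes. Arrays were compared by exact permutation over 924 relabellings. A list score is the mean over tested members of the level minus the gene's mean over 18 animals.

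Genes are named when they passed with Z scores, with quantile normalization, or, within a list, as the members of smallest p (up to 4 on the side of the list median, up to 2 on the opposite side). The comparison, lists and members were chosen with earlier results of these data known. Each animal is 1 sample, so p-values measure the spread between animals, and precision is limited by the number of arrays. No sequences are shown, and some genes were not analysed here. Tables and plots were made with Python 3.11.15, pandas 2.3.3, numpy 2.4.6, scipy 1.17.1 and matplotlib 3.10.9.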

Additional observations from a re-analysis of the deposited data

Results flagged for a closer look

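In groups of 6, an animal was singled out when its gap to the nearest other animal exceeded Dixon's critical share of the range of its group. This was so in 23 of 254 groups of arrays, passing genes and list scores (9.06%), where chance gives about 1 in 20.

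Middle-aged replicate 6 stood apart most often. The SD of its log2 intensities was 1.03, against 1.14 to 1.19 in the other middle-aged arrays. Its list scores were 0.53 for erythrocyte markers (others -0.75 to -0.35), 0.42 for large ribosomal subunit proteins (others -0.08 to 0.06), -0.24 for TBC domain Rab GTPase activators, -0.14 for the Ran pathway, importins and nuclear pore, -0.30 for antioxidant and NRF2 genes and -0.46 for peroxisomal genes (others -0.10 to -0.01).

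Old replicate 5 had scores of 0.79 for MHC class I and immunoproteasome genes (others -0.20 to 0.17), 0.24 for interferon-induced genes, 0.33 for aminoacyl-tRNA synthetases, 0.0715 for cholesterol synthesis and -0.86 for fast fibre genes (others -0.01 to 0.45). Old replicate 1 scored 0.72 for immediate early genes (others -0.27 to -0.05), old replicate 3 scored 0.33 for HSP70, HSP90 and HSP110 chaperones (others -0.29 to -0.12), and middle-aged replicate 4 scored 0.78 for smooth muscle and pericyte markers (others -0.03 to 0.23).

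Among the passing genes, the single levels were 6.61 for PLEKHB2 in middle-aged replicate 5 (others 6.84 to 6.89), 7.55 for GDPD1 in middle-aged replicate 3 (others 7.80 to 7.91), 8.74 for CALN1 in middle-aged replicate 3 (others 8.35 to 8.49) and 8.13 for NCEH1 in middle-aged replicate 4 (others 8.39 to 8.49). In old animals they were 7.78 for TOLLIP in replicate 2 (others 7.28 to 7.45), 9.05 for SMARCA4 in replicate 5 (others 8.68 to 8.78), 7.95 for FCGR3B in replicate 2 (others 7.64 to 7.74) and 7.43 for FLVCR2 in replicate 3 (others 7.70 to 7.80).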

How the results depend on the processing

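The 56 genes were chosen for a difference in these same data, so their direction is no independent check. It held under every alternative that gave them a value. Their side of the threshold did not hold: 812 of 1620 such values were no longer past it. The count of genes higher and lower in old muscle was 20 and 36. It was 144 and 19 (163 in all) with median centring without division by the SD, 14 and 52 with quantile normalization, 14 and 51 with neqc, 14 and 29 with the authors' Z scores, 10 and 26 (36) without a filter on dim probes, 9 and 20 (29) at a detection p under 0.01, 14 and 37 with only the 2 ages compared, and 28 and 43 with array weights. The methods' t-test at the study's thresholds on p, Z ratio and mean Z score gave 258 and 235 (493), and 13 and 38 genes after Benjamini-Hochberg adjustment. Leaving out 1 animal gave 1 to 89 genes, 0 to 47 higher and 1 to 52 lower, and without young replicate 6 and old replicates 1 and 2 together 4 genes passed, 2 higher and 2 lower. Chosen after the data were seen, quantile normalization with 1 animal left out gave 2 to 111 genes (0 to 49 higher, 2 to 62 lower). Without middle-aged replicates 1 to 6 in turn it gave 13, 21, 1, 6, 8 and 0 higher and 58, 52, 8, 29, 52 and 15 lower, and without old replicates 1 to 6 it gave 7, 0, 49, 0, 13 and 7 higher and 28, 9, 62, 2, 31 and 34 lower. The totals were 9 without middle-aged replicate 3 or old replicate 2, 15 without middle-aged replicate 6 and 35 without middle-aged replicate 4 or old replicate 1. It gave 7 higher and 46 lower with only the 2 ages compared. With the replicate block 6 genes passed, 2 higher and 4 lower. The numbers share no animal, 1 of 6 same-numbered pairs correlated above 0.1 (-0.12 to 0.22), and 1 of 6 animals correlated best with its own number, so they were not taken as a pairing.

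The difference in array spread was 0.0552 to 0.0888 with 1 animal left out (exact permutation p at most 0.0303) and 0.0868 over tested genes only. Among the brightest 10% of all probes the median difference was 0.02, against -0.07 over tested genes and 0.24 with median centring. List medians moved by more than 1 SD between animals in 53 of 1958 recomputed values. A slide or scan block was not run, since the headers name none. Genes near the background have understated differences.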

Other observations

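A further 18 genes passed only with quantile normalization, 2 of them higher and 16 lower in old muscle. The higher genes were CRTC1, a coactivator of the transcription factor CREB (log2 fold change 0.43 with Z scores, adjusted p = 0.0526), and the pseudogene HNRNPA3P1 (0.46, adjusted p = 0.0619). Among the lower genes were the matrix and cell surface genes GPC6, a glypican (-0.42), RSPO2, a secreted Wnt agonist (-0.40), and EFNA4, an ephrin (-0.46), the Fc receptor FCGR2B (-0.43), and the fatty acid elongation enzyme HSD17B12 (-0.54), with adjusted p from 0.0505 (FCGR2B) to 0.0702 (GPC6) under Z scores.

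SR and hnRNP splicing factors counted 7 of 51 tested genes higher (13.7%) and 2 lower (3.92%) at an unadjusted p under 0.05. Over all genes 9.24% and 7.22% were. HNRNPA3 differed by 0.78 and HNRNPA0 by 0.40 (limma adjusted p = 0.0717 and 0.0702). HNRNPA3 and its pseudogene HNRNPA3P1 are close in sequence, so their probes may share signal. Of 17 peroxisomal genes 15 lay above 0, with a median of 0.16 and 0.11 with quantile normalization, and PECR, a reductase of fatty acid chain elongation, differed by 0.35 (adjusted p = 0.0994). Of 23 genes of cholesterol synthesis and transport 4 were lower and none higher at an unadjusted p under 0.05. The share lower was 17.4%, against 7.22% of all genes. The sterol oxidase MSMO1 (-0.46) and SREBF2, the transcription factor of sterol synthesis (-0.37), were among the lower (adjusted p = 0.105 and 0.124). NCEH1 alone passed. The growth factor gene TGFB3 differed by -0.44 (adjusted p = 0.0619).

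In a principal component analysis of the 12 animals, the first component held 18.9% of the variance, with scores of -2.08 to 22.7 at midlife and -21.0 to 3.95 in old age.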
